A study of Mus musculus with 6 samples.

Results

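Retinoic acid is made from vitamin A inside cells, and the 9 genes described here carry it from entry to removal: Stra6, Aldh1a1, Aldh1a2, Aldh1a3, Crabp1, Crabp2, Cyp26a1, Cyp26b1 and Rarb. They were chosen by gene symbol from the 25239 genes of the count table, with results of these same libraries already known. Their levels and changes are therefore given as a description and support nothing, and no p value is printed for them. Bulk RNA-seq was performed at day 31 on follicle-enriched thyroid organoids grown from a mouse embryonic stem cell line, G4 RosaLuc, that carries the constructs TRE-Nkx2-1-Pax8 and bTg-NES-BrafV637E-ERT2. All 6 libraries share this genotype, a doxycycline pulse that switched on Nkx2-1 and Pax8, and 8-Br-cAMP in the medium.

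The cAMP group (2 libraries) was never given 4-hydroxytamoxifen and, by the study's methods, received the ethanol vehicle. The 4OHT group (2 libraries) was given 1 µM 4-hydroxytamoxifen for 5 days, which activates the BrafV637E-ERT2 fusion, BrafV637E being the mouse form of the BRAF mutation of papillary thyroid cancer. The PD+LY group (2 libraries) was given 250 nM of the MEK inhibitor PD0325901 and 5 µM of the PI3K inhibitor LY204002 for 3 days, while 4OHT went on. The methods place 4 days of 4OHT before inhibitors, so PD+LY and 4OHT may also differ in their days of 4OHT, and the 2 differences cannot be told apart. A thyroglobulin promoter (bTg) drives the Braf fusion, so the fusion is expected in thyroid cells only, while other cells remain after enrichment. The line was derived by isolating clones, at least 3 wells were pooled for each library, and nothing in the labels says that replicates came from separate differentiations. Their spread may thus be technical.

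Stra6 is the membrane receptor that takes up retinol from its carrier in the blood. Retinal is oxidised to retinoic acid by the retinaldehyde dehydrogenases Aldh1a1, Aldh1a2 and Aldh1a3, a step that cannot be undone. Inside the cell retinoic acid is bound by Crabp1 and Crabp2, broken down by the Cyp26 enzymes, and sensed by nuclear receptors that sit on DNA as heterodimers of a Rar and an Rxr. Rarb and Cyp26a1 are textbook genes switched on by retinoic acid itself, through direct repeats of a short hexamer in their promoters, and Cyp26a1 thereby closes a feedback loop. In the embryo retinoic acid patterns the foregut and hindbrain, and it is widely used to make embryonic stem cells differentiate.

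The response elements are shown first, because Rarb and Cyp26a1 are the members whose own promoters are classical sites of retinoic acid action. RefSeq promoter windows (GRCm38.p6, 250 bases before to 50 after the start) were on hand for 7 of the 9 genes, in 11 windows, and not for Aldh1a3 and Crabp2. They were searched on both strands for direct repeats of the hexamer AGGTCA or one of its close variants, which were AGTTCA (found in both repeats printed here), GGTTCA (found in Rarb alone) and the further form GGGTCA, with 1, 2 or 5 bases between the hexamers, spacings which exclude one another for a given pair. A 5-base spacing was found in 32 of 32851 promoters (0.0974%), a 2-base spacing in 88 (0.268%) and a 1-base spacing in 73 (0.222%). Among the members' windows there were 2 matches, both with 5 bases between. The Rarb match lay 53 to 37 bases before the start on the gene's own strand, and the Cyp26a1 match 32 to 16 bases before the start on the opposite strand. Read in the direction of the repeat, with the hexamers in capitals, they are:

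Rarb, chr14:16575507-16575535, minus strand: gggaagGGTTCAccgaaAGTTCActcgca

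Cyp26a1, chr19:37697770-37697798, minus strand: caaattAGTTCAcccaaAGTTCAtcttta

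Over the 17 bases of the repeat, 15 were identical between the genes. The Cyp26a1 promoter from 100 to 12 bases before the start is printed on the gene's strand, so that the place of the repeat can be seen, with the hexamers, here as their reverse complements, in capitals:

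Cyp26a1, chr19:37697708-37697796, plus strand: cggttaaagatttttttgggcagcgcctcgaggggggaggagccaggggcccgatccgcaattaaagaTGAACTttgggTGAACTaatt

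A match is a description of letters and not a bound site, and the windows without one hold no such letters within these limits.

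Counts per library ranged from 14898409 to 20637959, so that 1 count was worth 0.0486 to 0.0667 CPM, the unit of counts brought to 1 common library total. CPM values use library totals scaled by TMM, an edgeR method that removes differences in composition. A gene is said to rise or fall where edgeR's quasi-likelihood fit over 15256 genes put the Benjamini-Hochberg adjusted p below 0.05 and the change was 2-fold or more. All 9 members passed the filter on low counts. All 7 thyroid follicular markers (Tg, Tshr, Slc5a5, Pax8, Nkx2-1, Foxe1 and Hhex) were above the floor of 3 counts in every library, and so were all 8 pluripotency markers. In bulk RNA fewer cells of a type and less RNA per cell cannot be told apart, which holds for every value below. The 4OHT libraries serve 4OHT against cAMP and PD+LY against 4OHT, and the other groups are likewise each used more than once, so the comparisons are not independent.

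When the 3 groups were compared, the members moved in different ways. In 4OHT against cAMP, 1 member rose (Aldh1a3) and 3 fell (Aldh1a1, Crabp2 and Cyp26a1), while 2.67% of all tested genes were called (1.17% up and 1.51% down). In PD+LY against 4OHT, 2 rose (Aldh1a1 and Aldh1a2) and 3 fell (Aldh1a3, Crabp1 and Stra6), where 7.26% of all genes were called (2.35% up and 4.9% down). In PD+LY against cAMP, 1 rose (Aldh1a2) and 3 fell (Crabp1, Crabp2 and Stra6), with 9.24% of all genes called (3.0% up and 6.24% down). By the p threshold alone, at any fold, 6, 6 and 5 members passed in the 3 comparisons, beside 8.39%, 22.7% and 25.7% of all genes. These shares are background, and nothing is read from the difference, since the results were known when the genes were chosen. The median log2 fold change of the 9 genes was -0.51, -0.37 and -0.44 in the 3 comparisons, and over all tested genes it was -0.00, 0.01 and 0.00.

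**Figure D1:**
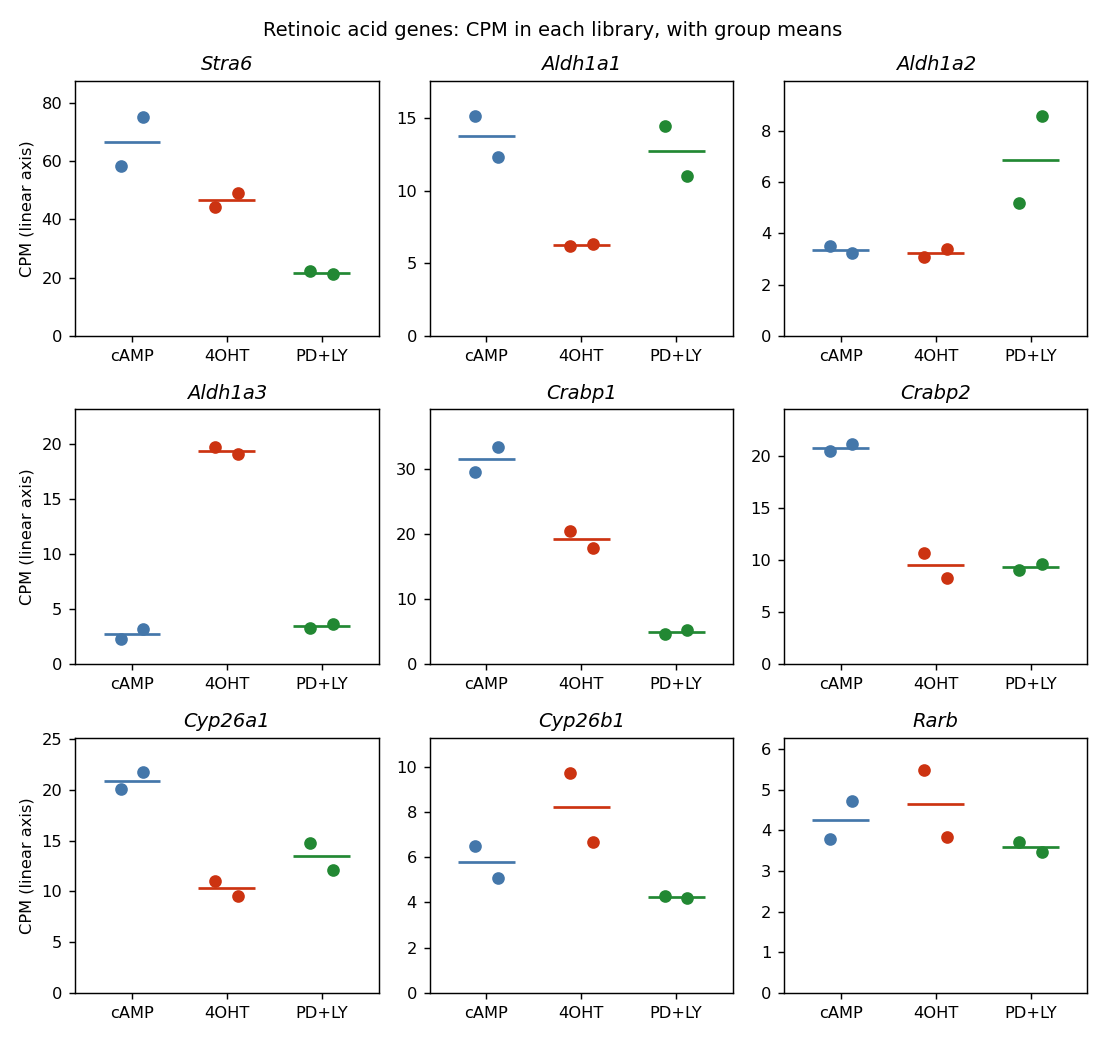
CPM of the 9 retinoic acid genes (vertical axes, linear, from 0) in each library of the cAMP, 4OHT and PD+LY groups; points are libraries and lines are means of 2. Aldh1a3 stood at 19.1 and 19.7 CPM in 4OHT and at or under 3.65 CPM in the other 4 libraries, whereas Crabp1 and Stra6 went down from cAMP through 4OHT to PD+LY.

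Uptake was represented by Stra6 (chr9:58063788-58153996, plus strand). Stra6 was at 58.3 and 75.1 CPM in cAMP, 44.3 and 49.1 CPM in 4OHT, and 22.2 and 21.4 CPM in PD+LY. The groups did not overlap, and each stood below the one before. Stra6 was 0.51 ± 0.14 (SE, n = 2 per group) lower on the log2 scale in 4OHT than in cAMP, which passed the p threshold at under 2-fold. It fell by 1.10 ± 0.14 in PD+LY against 4OHT and by 1.62 ± 0.14 in PD+LY against cAMP, so that the inhibitor group kept 0.326 of the cAMP level. These falls held without each library in turn, whereas the 4OHT difference did not pass the p threshold without cAMP replicate 2 (-0.31), 4OHT replicate 1 (-0.44) or 4OHT replicate 2 (-0.59).

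The largest rise among the members was in the mRNA of a synthesis gene. Aldh1a3 (chr7:66390890-66427517, minus strand), the retinaldehyde dehydrogenase known from the developing eye and nasal region and from several tumours, had 37 and 66 counts in cAMP, 295 and 348 in 4OHT, and 65 and 75 in PD+LY. As CPM these were 2.33 and 3.22, then 19.7 and 19.1, then 3.31 and 3.65. Both 4OHT libraries were far above the other 4, and the PD+LY libraries were only just above those of cAMP. Aldh1a3 rose 6.91-fold in 4OHT against cAMP (log2 2.79 ± 0.22) and fell 5.56-fold in PD+LY against 4OHT (log2 -2.47 ± 0.21). PD+LY and cAMP differed by log2 0.31 ± 0.23, with a 95% interval from -0.20 to 0.82, which leaves room for no difference or for one under 2-fold. No library, when left out, changed these calls.

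Aldh1a1 (chr19:20492715-20643465, plus strand), which is found in the dorsal retina and in many adult epithelia, went the other way. It was at 15.2 and 12.3 CPM in cAMP, 6.20 and 6.36 CPM in 4OHT, and 14.5 and 11.0 CPM in PD+LY. The 4OHT libraries lay below all others, and those of cAMP and PD+LY overlapped. Aldh1a1 fell 2.18-fold in 4OHT (log2 -1.12 ± 0.20) and rose 2.03-fold in PD+LY against 4OHT (log2 1.02 ± 0.20). PD+LY against cAMP gave log2 -0.11 ± 0.19, with an interval from -0.52 to 0.31. The fall stood close to the threshold: it was no longer called without cAMP replicate 1 (-0.97), without 4OHT replicate 1 (-1.10) or without 4OHT replicate 2 (-1.14). The rise was no longer called without PD+LY replicate 1 (0.81).

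Aldh1a2 (chr9:71215789-71296243, plus strand), the main retinoic acid producer of the early embryo and of mesoderm, did not follow either. Its level was 3.52 and 3.22 CPM in cAMP, 3.07 and 3.40 CPM in 4OHT, and 5.20 and 8.56 CPM in PD+LY. Without inhibitors the libraries overlapped within a narrow range, and both PD+LY libraries were above them but apart from each other. In 4OHT against cAMP the difference was log2 -0.05 ± 0.30 (interval -0.71 to 0.60). Aldh1a2 rose 2.12-fold in PD+LY against 4OHT (log2 1.09 ± 0.28) and 2.05-fold against cAMP (log2 1.03 ± 0.28). Without PD+LY replicate 2, which had 176 counts beside 102 in replicate 1, the differences were 0.68 and 0.63 and not called. Neither was called without 1 of the other group's libraries (1.02 and 1.17 without 4OHT replicates 1 and 2, 1.10 and 0.97 without cAMP replicates 1 and 2). The summed CPM of 10 mesenchymal markers (Col1a1, Col1a2, Col3a1, Pdgfra, Pdgfrb, Dcn, Lum, Twist1, Prrx1 and Thy1) was 1190 to 1289 in cAMP, 2218 to 2339 in 4OHT and 3972 to 4637 in PD+LY, all 10 being above the floor in every library. The list did not move as one. From cAMP to 4OHT 1 rose and 0 fell, and from 4OHT to PD+LY 2 rose and 2 fell. From cAMP to PD+LY 4 rose and 1 fell. Of all tested genes 2.67%, 7.26% and 9.24% were called in these 3 comparisons. The part of these markers in the Aldh1a2 levels was not tested.

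**Figure D2:**
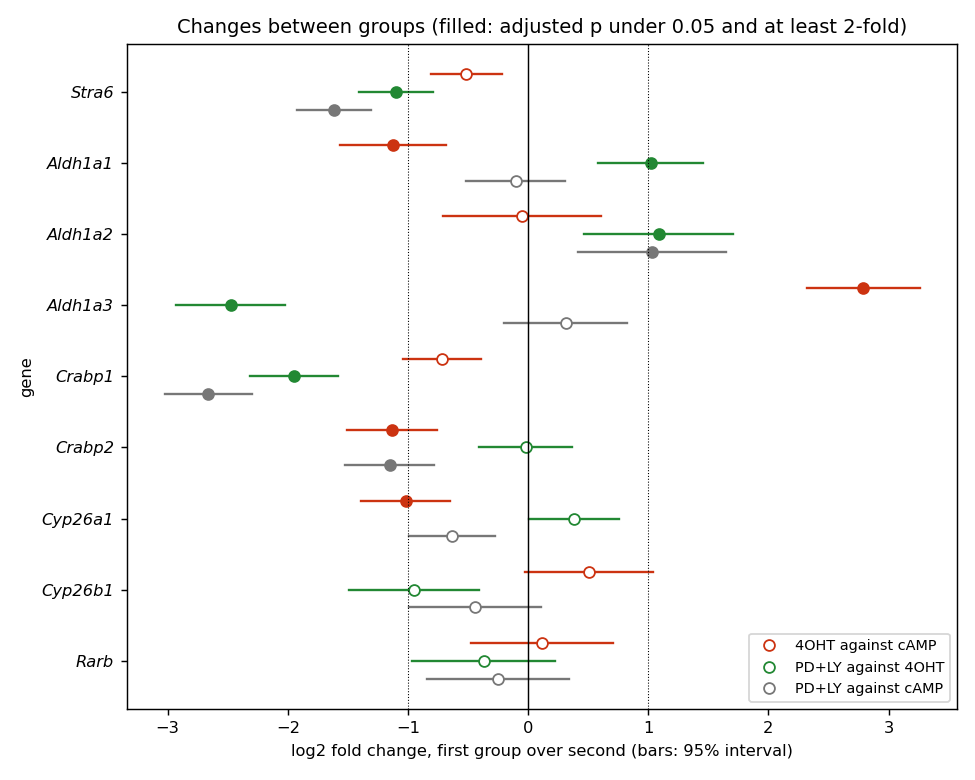
Log2 fold change (horizontal axis) of each retinoic acid gene in the 3 comparisons, with 95% intervals as bars; filled points passed an adjusted p under 0.05 and at least 2-fold, and dotted lines mark 2-fold. Aldh1a3 lies at 2.79 in 4OHT against cAMP and at -2.47 in PD+LY against 4OHT. Crabp1, Crabp2 and Stra6 lie below 0 in all 3, Crabp2 only just so in PD+LY against 4OHT (-0.02).

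Per length of exon the 3 dehydrogenases could be set side by side. In FPKM (CPM per kilobase of annotated exon bases) the sum of the family was 5.13 and 4.61 in cAMP, 6.88 and 6.93 in 4OHT, and 5.94 and 6.81 in PD+LY. Its make-up differed more than its sum. Aldh1a3 made up 9.83 and 15.1% of the sum in cAMP, 62.0 and 59.7% in 4OHT, and 12.1 and 11.6% in PD+LY. Aldh1a1 made up 59.8 and 54.1%, then 18.3 and 18.6%, then 49.3 and 32.9%. Aldh1a2 had 30.3 and 30.8%, then 19.7 and 21.7%, then 38.6 and 55.5%, so that by this length a different gene led in each PD+LY library. With the length of the longest transcript in place of all exon bases, Aldh1a3 still led in both 4OHT libraries (58.9 and 56.9%). By that length Aldh1a1 held 74.2 and 68.9% in cAMP and 65.3 and 49.2% in PD+LY. Aldh1a2 then had 24.4 and 39.7% in PD+LY, so Aldh1a1 led in both PD+LY libraries.

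**Figure D3:**
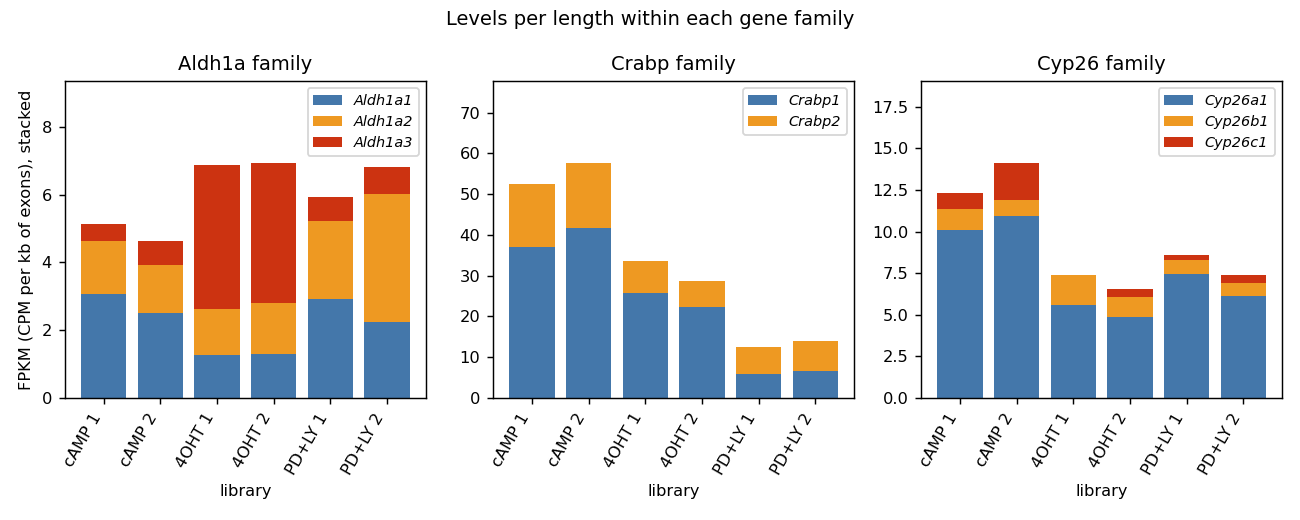
FPKM (vertical axes, CPM per kilobase of exons) in each of the 6 libraries, stacked by gene for the Aldh1a, Crabp and Cyp26 families. The Aldh1a bars range from 4.61 to 6.93, and Aldh1a3 makes up 59.7 to 62.0% of them in 4OHT and at most 15.1% elsewhere, and the Crabp bars shrink from 52.4 and 57.6 in cAMP to 12.6 and 13.9 in PD+LY.

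The mRNA of both binding proteins was lower with 4OHT, and that of Crabp1 lower again with inhibitors. Crabp1 (chr9:54764748-54773110, plus strand), a carrier of retinoic acid in the cytoplasm, was at 29.6 and 33.4 CPM in cAMP, 20.5 and 17.9 CPM in 4OHT, and 4.64 and 5.30 CPM in PD+LY. Every step was lower than the last, with no overlap. In 4OHT Crabp1 was log2 0.72 ± 0.15 below cAMP, which passed the p threshold at under 2-fold, but not without cAMP replicate 2 (-0.62), 4OHT replicate 1 (-0.81) or 4OHT replicate 2 (-0.61). It fell 3.86-fold in PD+LY against 4OHT (log2 -1.95 ± 0.17) and 6.34-fold against cAMP (log2 -2.66 ± 0.17), the largest fall of any member, and both falls held without each library.

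Crabp2 (chr3:87948666-87953376, plus strand), which hands retinoic acid to the receptors in the nucleus, behaved otherwise under inhibitors. It was at 20.5 and 21.1 CPM in cAMP, 10.7 and 8.34 CPM in 4OHT, and 9.02 and 9.68 CPM in PD+LY. The 4OHT and PD+LY libraries overlapped, and both groups were clear of cAMP. Crabp2 fell 2.20-fold in 4OHT (log2 -1.13 ± 0.17) and 2.22-fold in PD+LY against cAMP (log2 -1.15 ± 0.17). PD+LY against 4OHT gave -0.02 ± 0.18, with an interval from -0.41 to 0.37. Without 4OHT replicate 2 the fall in 4OHT was -0.96 and no longer called. Crabp1 made up 70.4 and 72.3% of the summed Crabp FPKM in cAMP, 76.0 and 78.0% in 4OHT, and 45.9 and 47.4% in PD+LY, where Crabp2 was thus the more abundant of the pair. The same held by longest transcript, with 37.4 and 38.9% for Crabp1 in PD+LY.

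Of the breakdown genes, Cyp26a1 (chr19:37697798-37701536, plus strand), the hydroxylase whose promoter is printed above, held the largest part of the summed FPKM in every library. Its level was 20.1 and 21.7 CPM in cAMP, 11.1 and 9.60 CPM in 4OHT, and 14.8 and 12.1 CPM in PD+LY. The 4OHT libraries were lowest and those of PD+LY lay between, without overlap. Cyp26a1 fell 2.03-fold in 4OHT (log2 -1.02 ± 0.17). It was no longer called without cAMP replicate 2 (-0.95) or without 4OHT replicate 2 (-0.91). PD+LY stood 0.38 ± 0.17 above 4OHT on the log2 scale, which did not pass, and -0.64 ± 0.16 from cAMP, which passed the p threshold at under 2-fold, but not without cAMP replicate 2 (-0.57) or PD+LY replicate 2 (-0.50).

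Cyp26b1 (chr6:84571414-84593908, minus strand), the enzyme that shields the developing limb and male germ cells from retinoic acid, was at 6.48 and 5.07 CPM in cAMP, 9.74 and 6.69 CPM in 4OHT, and 4.28 and 4.18 CPM in PD+LY. The highest value was in a 4OHT library and the lowest in PD+LY, and the groups did not overlap, although cAMP replicate 1 and 4OHT replicate 2 were nearly level. The difference of 4OHT from cAMP was log2 0.51 ± 0.24 (interval -0.02 to 1.04) and did not pass. PD+LY was 0.95 ± 0.25 below 4OHT, which passed the p threshold at under 2-fold, reached a call only without 4OHT replicate 2 (-1.20), and missed the p threshold without 4OHT replicate 1 (-0.66). Against cAMP it was -0.44 ± 0.25 and did not pass.

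The third enzyme of the family, Cyp26c1 (chr19:37685581-37693398), lies 4399 bases from Cyp26a1 and is not one of the 9. It had 27 and 79 counts in cAMP, 0 and 14 in 4OHT, and 10 and 17 in PD+LY, and its replicates were far apart. By edgeR's quasi-likelihood test Cyp26c1 fell in 4OHT (log2 -2.75 ± 0.77, adjusted p = 0.0476) and in PD+LY against cAMP (-2.06 ± 0.70, adjusted p = 0.0487). DESeq2 called neither. The first call was lost without cAMP replicate 2 (-2.03) or 4OHT replicate 1 (-1.86). The second was lost without cAMP replicate 2 (-1.32), PD+LY replicate 1 (-1.76) or PD+LY replicate 2 (-2.45), and with another scaling (RLE size factors, -2.06). Cyp26a1 made up 74.1 to 87.3% of the summed Cyp26 FPKM over the 6 libraries, and that sum was 12.3 and 14.1 in cAMP, 7.40 and 6.53 in 4OHT, and 8.57 and 7.36 in PD+LY.

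Rarb (chr14:16430839-16819156, minus strand) is the receptor whose promoter repeat is shown above. The promoter window searched (chr14:16575427-16575726) lies inside that span, not at its outer end. The counts cover the whole gene and do not single out transcripts from that start. Rarb was at 3.77 and 4.73 CPM in cAMP, 5.47 and 3.84 CPM in 4OHT, and 3.72 and 3.45 CPM in PD+LY. The cAMP and 4OHT libraries overlapped, and those of PD+LY were lowest by a small margin. No comparison was called: 4OHT against cAMP gave log2 0.12 ± 0.27 (interval -0.47 to 0.71), PD+LY against 4OHT -0.37 ± 0.27 (-0.96 to 0.23), and PD+LY against cAMP -0.25 ± 0.27 (-0.85 to 0.34). Of the exon bases of Rarb, 38.4% overlap Gm48162 and Top2b on the opposite strand, and because counting ignored strand the reads of these genes cannot be told apart there. The other 8 members share no exon bases with another gene.

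Across the 9 genes, non-overlapping groups were common, as they were among all genes. In 4OHT against cAMP 2 members were higher and 5 lower in both libraries of a group (29.1% of all tested genes were higher in this way and 29.4% lower). In PD+LY against 4OHT 3 were higher and 5 lower (31.1% and 31.2% of all genes), and in PD+LY against cAMP 2 were higher and 6 lower (30.2% and 31.2%).

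Levels per length put the genes in a different order in each group. In cAMP the FPKM was 39.3 for Crabp1, 15.7 for Crabp2, 11.4 for Stra6, 10.5 for Cyp26a1, 2.78 for Aldh1a1, 1.49 for Aldh1a2, 1.08 for Cyp26b1, 0.807 for Rarb and 0.600 for Aldh1a3. Only Stra6 and Cyp26a1 overlapped among neighbours. In 4OHT the order was Crabp1 (24.0), Stra6 (8.02), Crabp2 (7.19), Cyp26a1 (5.21), Aldh1a3 (4.20), Cyp26b1 (1.54), Aldh1a2 (1.43), Aldh1a1 (1.27) and Rarb (0.884), so that Aldh1a3 no longer came last. Stra6 overlapped Crabp2 there, and Cyp26b1 overlapped Aldh1a2. In PD+LY Crabp2 (7.07), Cyp26a1 (6.79) and Crabp1 (6.19) were not separated from their neighbours, nor were Stra6 (3.74), Aldh1a2 (3.04) and Aldh1a1 (2.58), nor Cyp26b1 (0.790) and Aldh1a3 (0.754), and Rarb was last at 0.681. By longest transcript the FPKM of Stra6 was 21.7 in cAMP, where it then overlapped Crabp2 at 22.3, so the order of these genes depends on the length used.

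The rest of the pathway was examined in 40 further genes, of which 32 passed the filter. These were also listed with earlier results of these data known. Among them Rdh11, Ttr, Fabp5 and Tgm2 were named after their values were seen. The p values printed for pathway genes are thus a description and support nothing. In 4OHT against cAMP 2 rose and 1 fell (2.67% of all genes were called), in PD+LY against 4OHT 0 rose and 3 fell (7.26%), and in PD+LY against cAMP 0 rose and 2 fell (9.24%). Their medians were -0.06, -0.02 and -0.0047 on the log2 scale. DESeq2 called 1, 2 and 1 of them, beside 369, 974 and 1250 of all genes. At an unadjusted edgeR p under 0.05 there were 6, 10 and 8 of the pathway genes. The share of all genes at that threshold was not taken, so nothing is read from these or later counts at it.

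**Figure D4:**
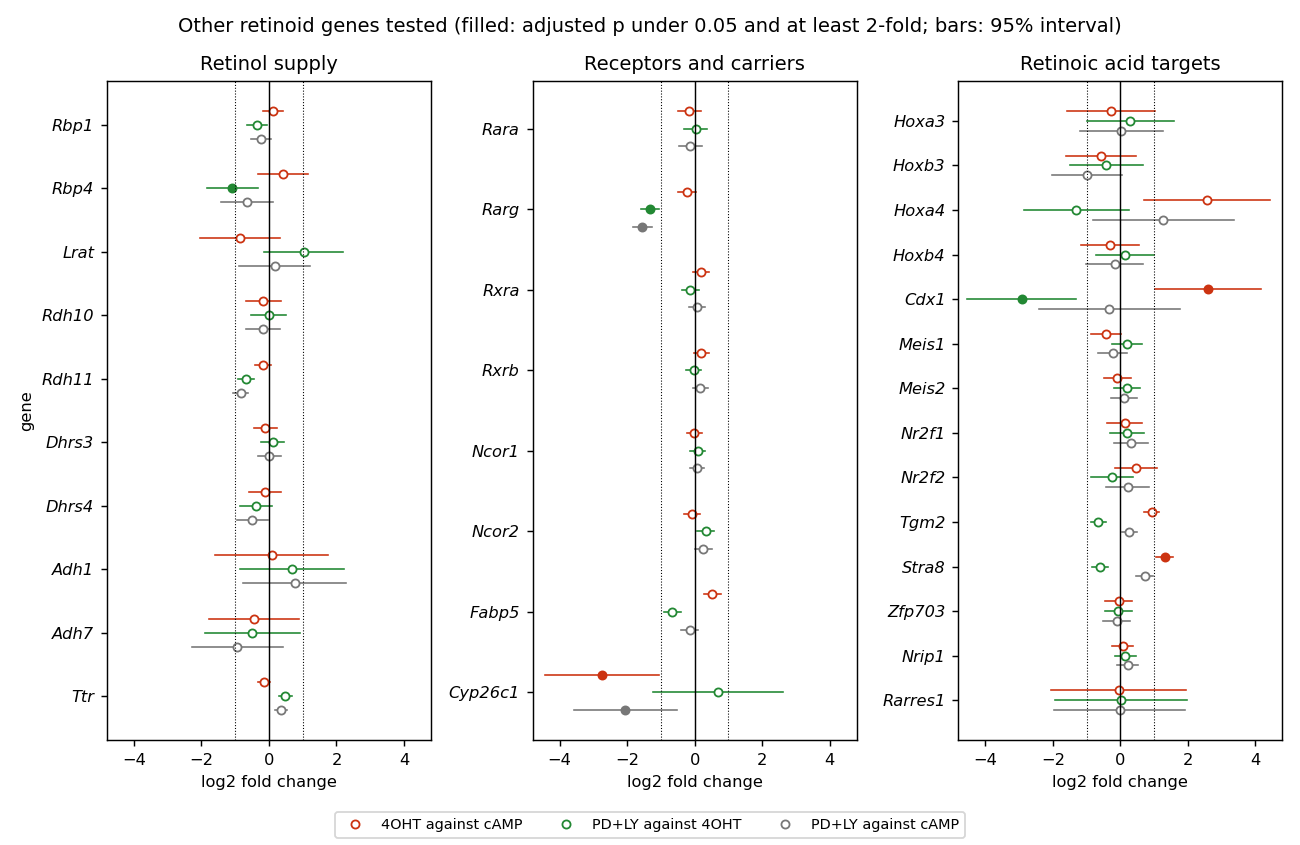
Log2 fold change (horizontal axes) of 32 other retinoid genes in the 3 comparisons, by role, with 95% intervals as bars; filled points passed an adjusted p under 0.05 and at least 2-fold. Most points lie near 0, and the filled ones are Stra8, Cdx1, Rarg, Rbp4 and Cyp26c1.

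Of 10 tested genes of retinol supply (uptake, storage, and the exchange of retinol and retinal), 0 were called in 4OHT against cAMP by edgeR. Over all genes 2.67% were called there. At an unadjusted p under 0.05 there were 0 of the 10. Rbp4, the retinol carrier of the blood, was at 2.58 and 4.43 CPM in cAMP, 4.27 and 5.27 CPM in 4OHT, and 1.63 and 2.87 CPM in PD+LY. It fell in PD+LY against 4OHT (log2 -1.08 ± 0.35, edgeR adjusted p = 0.0446), a call that was lost in DESeq2 and without 4OHT replicate 1 (-1.22), 4OHT replicate 2 (-0.92) or PD+LY replicate 1 (-0.74). Rdh11, a retinal reductase, passed the p threshold at under 2-fold in PD+LY against both others (-0.67 ± 0.11 with edgeR adjusted p = 0.00119, and -0.84 ± 0.11 with 0.000179). Ttr, transthyretin, which travels with the retinol carrier in the blood, did so in the other direction (0.49 ± 0.08 with edgeR adjusted p = 0.0018, and 0.35 ± 0.08 with 0.00962, the second not without cAMP replicate 1 (0.34) or cAMP replicate 2 (0.38)). It was at 291 and 298 CPM in cAMP, 260.0 and 276 CPM in 4OHT, and 369.7 and 382 CPM in PD+LY.

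Among 8 tested receptors, corepressors, carriers and Cyp26c1, the receptor gene Rarg was called under the inhibitors. It was at 68.4 and 71.8 CPM in cAMP, 64.8 and 55.0 CPM in 4OHT, and 22.5 and 25.5 CPM in PD+LY. Both PD+LY libraries were well under the other 4. Rarg fell in PD+LY against 4OHT (log2 -1.32 ± 0.13, edgeR adjusted p = 4.46e-05) and against cAMP (-1.55 ± 0.13, adjusted p = 8.45e-06), and it differed from cAMP in 4OHT by -0.23 ± 0.12 (adjusted p = 0.28). Rara, at 31.2 to 41.8 CPM over all libraries, had log2 differences of -0.17, 0.03 and -0.13 in the 3 comparisons. Rxra had 0.19, -0.12 and 0.07 and Rxrb 0.20, -0.03 and 0.16, and none of these passed. Rxrg had 2 to 12 counts per library and was not tested. Fabp5, a fatty acid binding protein that can carry retinoic acid, passed the p threshold at under 2-fold in 4OHT against cAMP (0.52 ± 0.11, edgeR adjusted p = 0.0167, lost without cAMP replicate 2, 4OHT replicate 1 or 4OHT replicate 2 at 0.45, 0.41 and 0.63) and again, downwards, in PD+LY against 4OHT (-0.66 ± 0.11, adjusted p = 0.00176).

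Of 14 tested genes known to respond to retinoic acid, 2 rose in 4OHT against cAMP and 0 fell. Of all tested genes 1.17% rose and 1.51% fell there. Stra8, a retinoic acid-induced gene of germ cells entering meiosis, was at 97.8 and 94.9 CPM in cAMP, 236 and 243 CPM in 4OHT, and 140 and 177 CPM in PD+LY. The groups were fully separated, with PD+LY between the others. Stra8 rose 2.49-fold in 4OHT (log2 1.31 ± 0.11, edgeR adjusted p = 6.39e-05), a call that held without each library. In PD+LY it stood -0.59 ± 0.11 from 4OHT (adjusted p = 0.00289) and 0.72 ± 0.11 above cAMP (adjusted p = 0.000677), both under 2-fold. Cdx1, a caudal homeobox gene, had 1 and 6 counts in cAMP, 18 and 21 in 4OHT, and 4 and 2 in PD+LY. It rose in 4OHT (log2 2.59 ± 0.72, edgeR adjusted p = 0.047) and fell in PD+LY against 4OHT (-2.92 ± 0.74, adjusted p = 0.015). On these few counts the rise was lost without cAMP replicate 1 (1.98), cAMP replicate 2 (4.08), 4OHT replicate 1 (2.57) or 4OHT replicate 2 (2.63), and DESeq2 gave it no adjusted p. The fall was lost without 4OHT replicate 1 (-2.89), 4OHT replicate 2 (-2.95) or PD+LY replicate 2 (-2.49).

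Tgm2, the tissue transglutaminase, passed the p threshold at under 2-fold in 4OHT (0.93 ± 0.10, edgeR adjusted p = 0.000328) and, downwards, in PD+LY against 4OHT (-0.66 ± 0.10, adjusted p = 0.000914). Of its exon bases 21.8% overlap Gm20412 and Rprd1b on the opposite strand. In PD+LY against cAMP 0 of the 14 were called by edgeR, beside 9.24% of all genes, with 2 at an unadjusted p under 0.05.

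To show which genes kept closest company with Aldh1a3 and Crabp1, log2 CPM was centred per gene over the 6 libraries and compared by the root mean square difference with 11221 genes whose mean over the 6 libraries was at least 5 CPM. Closest to Aldh1a3 were S100a14 (0.469), Ecm1 (0.482), Sprr1a (0.571), Lgals3 (0.616) and Khdc3 (0.618). Ecm1, an extracellular matrix protein, had mean levels of 33.5 CPM in cAMP, 112 CPM in 4OHT and 31.2 CPM in PD+LY. S100a14, a calcium-binding protein of epithelia, had 4.74, 21.9 and 2.73 CPM. Both were highest in 4OHT, S100a14 being over 5 CPM there and not in the other groups, and none of the 5 matched the 6.91-fold rise of Aldh1a3. Closest to Crabp1 were Ddit4 (0.144), Tcf15 (0.160), Usp44 (0.175), Elavl3 (0.212) and Manba (0.231). Ddit4, an inhibitor of mTORC1 induced by stress, had means of 243.9 CPM in cAMP, 158 CPM in 4OHT and 42.3 CPM in PD+LY. Elavl3, a neuronal RNA-binding protein, had 15.2, 11.8 and 3.03 CPM. The likeness rests on 6 libraries, and the distances within the Crabp1 set were smaller than those within the Aldh1a3 set.

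Some marker lists of the cell types that the organoids could hold moved with the groups as well, and others did not. Beside the calls below, 2.67% of all tested genes were called in 4OHT against cAMP. In PD+LY 7.26% were called against 4OHT and 9.24% against cAMP. Summed over 7 thyroid follicular markers, the libraries held 1619 and 1077 CPM in cAMP, 559 and 750.1 CPM in 4OHT, and 1942 and 965 CPM in PD+LY. Of these 7, 1 fell from cAMP to 4OHT, 4 rose from 4OHT to PD+LY and 1 rose from cAMP to PD+LY. The 8 epithelial markers summed to 1170 and 1264, then 859 and 967, then 805 and 850 CPM, and 2 of them fell from cAMP to 4OHT, 2 from 4OHT to PD+LY and 4 from cAMP to PD+LY. Pluripotency markers were high throughout, at 3540 to 4370 CPM, with 0 of 8 called in any comparison. The 8 neural progenitor markers summed to 86.1 to 89.1, 67.9 to 68.5 and 89.9 to 97.3 CPM. Dcx was under the floor in at least 1 library, yet all 8 were tested. With cAMP as the base 1 of them fell in each of the other groups. The 8 endothelial markers summed to 168 to 191 CPM over all libraries, and Emcn was under the floor in at least 1 library. Of the 7 tested, 4 fell from cAMP to 4OHT, 1 from 4OHT to PD+LY and 3 from cAMP to PD+LY. The number called higher was 0. The 7 endoderm markers summed to 130 to 151, 123 to 147 and 72.9 to 94.5 CPM, and 2 fell from cAMP to PD+LY. Afp, Apoa1 and Apob were each under the floor in at least 1 library, yet all 7 were tested. The 6 lung markers summed to 240 to 263, 274 to 296 and 83.2 to 95.3 CPM. Sftpc and Sftpa1 were each under the floor in at least 1 library, yet all 6 were tested. Of the 6, 2 fell to PD+LY from each of the other groups. Of 6 macrophage markers (67.4 to 68.5, 59.1 to 65.8 and 32.8 to 34.4 CPM), Ptprc, Adgre1 and C1qa were at 0 in every library, and 1 of the 3 tested fell from cAMP to PD+LY. The part of these shifts in the levels of the retinoic acid genes was not tested.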

How the data were processed

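The authors trimmed paired-end reads with Trimmomatic, aligned them to mm10 with HISAT2 and counted reads for each gene with HTSeq in its unstranded mode, although the library kit was stranded. The deposited values are these raw counts, not normalized. The 9 genes and all other lists were chosen with earlier results of these data known. Named genes were the 9 members, other pathway genes called at least once, the Rar and Rxr genes, and the 5 genes nearest to Aldh1a3 and Crabp1. Of the lists, 1 pathway gene and 1 thyroid marker are not reported here. A few genes under 2-fold (Rdh11, Ttr, Fabp5, Tgm2) were added after their values were seen. Counts were filtered (filterByExpr, minimum count 10, total 15), normalized by TMM and fitted with edgeR 4.0.16 (R 4.3.3) as 1 quasi-likelihood model of 3 groups over 6 libraries, with Benjamini-Hochberg adjustment over 15256 genes. The common biological coefficient of variation was 0.105. The script was tested on simulated data. Alternatives were DESeq2 1.42.0, RLE size factors, other filters, no fold threshold, only the 2 groups compared, a replicate block, leaving out each library and, added after seeing the data, halved counts, since 65.0 to 70.7% of counts from 1 to 9 were even. Whether both mates of a pair were counted is not given in the sources used here. Positions and exon lengths came from GENCODE M21 and promoters from RefSeq (GRCm38.p6). Intervals cover the spread between libraries, and floors of 3 counts cover counting error only.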

Additional observations from a re-analysis of the deposited data

How the results depend on the processing

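Of 351 alternative values for the members' fold changes, 329 kept their direction and stayed called or not called. Of the rest, 13 lost the call, 1 gained it and 8 turned direction. All 22 of these came from leaving out 1 library. A call needed both thresholds, so some values counted as kept no longer passed the p threshold without 1 library, at under 2-fold. They belonged to Crabp1 and Stra6 in 4OHT against cAMP, Cyp26a1 in PD+LY against cAMP and Cyp26b1 in PD+LY against 4OHT. The calls of Aldh1a3, Crabp1 and Stra6 held in every alternative. The turned values belonged to differences that were not called: over the libraries left out they ran from -0.13 to 0.020 for Aldh1a2 and from -0.15 to 0.36 for Rarb in 4OHT against cAMP, from -0.19 to 0.17 for Crabp2 in PD+LY against 4OHT, and from -0.31 to 0.081 for Aldh1a1 in PD+LY against cAMP.

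Of 460 such values for the other named pathway genes, 28 did not keep direction or call. Among differences that were not called, those of Rara ran from -0.37 to 0.016, from -0.14 to 0.25 and from -0.31 to 0.023 in the 3 comparisons. Rxrb ran from -0.092 to 0.027 and Cyp26c1 from -0.19 to 6.64 in PD+LY against 4OHT, the upper end against a lone 4OHT library at 0 counts and so no measure of size. In PD+LY against cAMP Rxra ran from -0.026 to 0.18 and Cdx1 from -0.94 to 1.17.

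The number of members called ranged from 1 to 4 in 4OHT against cAMP, 4 to 5 in PD+LY against 4OHT and 3 to 4 in PD+LY against cAMP when 1 library was left out. The lowest, without 4OHT replicate 2, kept Aldh1a3 alone. For the other pathway genes the ranges were 1 to 3, 1 to 3 and 1 to 2. With no fold threshold 5, 8 and 5 of them were called, and of all genes 1280, 3469 and 3925 in place of 408, 1107 and 1409. In 4OHT against cAMP only Stra8 was called when 10 counts in every library were required, and in DESeq2 (1 gene each). In PD+LY against cAMP only Rarg was called with RLE size factors, with that filter and in DESeq2 (1 gene each). Over all genes the counts without 1 library ran from 164 to 487, 632 to 1176 and 1118 to 1391.

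Replicate numbers are shared by the groups. Same-numbered libraries deviated together with correlations of 0.07 (cAMP and 4OHT), 0.21 (cAMP and PD+LY) and 0.06 (4OHT and PD+LY). From 2 libraries a group, these values cannot show whether a shared number stands for a shared differentiation or batch. Whether the samples are paired is therefore not known. With the replicate block 4, 5 and 4 members, 3, 3 and 2 other pathway genes, and 513, 1222 and 1481 of all genes were called in the 3 comparisons. Halving the counts changed no call of a member or pathway gene. Of the levels per length, 19 of 27 moved by more than 1 SD with the longest transcript. Each group had 2 libraries, and some members had few counts. Rarb was under 100 counts in every library, and Aldh1a2 in those of cAMP and 4OHT. Aldh1a3 was under it in those of cAMP and PD+LY, and Cyp26b1 in those of PD+LY. Crabp1 was also under it in PD+LY replicate 1 (91 counts), and Aldh1a1 in 4OHT replicate 1 (93 counts). The intervals of Rarb, and of Aldh1a2 in 4OHT against cAMP, left room for no difference or for one under 2-fold. That of Cyp26b1 did so in PD+LY against cAMP. In 4OHT against cAMP the Cyp26b1 interval (-0.02 to 1.04) left room for no difference, but also for one just over 2-fold. In PD+LY against 4OHT it left no room for no difference (-1.49 to -0.41).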
